A study of Mus musculus with 13 samples.

Results

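Interferon-stimulated genes are the genes that cells switch on after interferon, a secreted alarm signal, reaches their receptors. The set described here was chosen by name, with earlier results of these data known. It held 49 genes, found through the gene symbol of each array probe among 45281 probes. Of these, 45 had at least 1 named probe (75 probes in all), and 36 gave a signal above background on at least 3 of the 13 arrays and were tested among 11927 genes. Oas2, Ifi44, Herc6 and Eif2ak2 had no named probe and were not analysed here. Ifih1, Ifi204, Oas1a, Oas3, Ifit1, Mx1, Iigp1, Xaf1 and Parp9 had probes that stayed below the filter. A probe below background does not show that its transcript was absent.

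The tissue came from 2 mouse models of high-grade glioma whose tumor suppressor genes were deleted by an inducible Cre recombinase. In mice with Nestin-creERT2, the regulatory sequences of nestin, an intermediate filament gene of neural stem cells, drive the recombinase. The other model, NG2-creERTM, uses those of NG2, a surface proteoglycan that marks oligodendrocyte progenitors and pericytes. Both Cre forms need tamoxifen to act. The Nestin model gave 3 tumors and 3 controls and the NG2 model 4 tumors and 3 controls, each labelled as an independent tumor or a biological replicate. Tumors were collected at the onset of neurological signs, and each control was brain of matching position from a control mouse of the same model. The labels give neither the deleted genes, the strain, the ages and the tamoxifen schedule nor the alleles that the control mice carried. A total of 5 NG2 tumors is named in the design text, and 1 of them was not analysed here.

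Type I interferons bind the receptor chains Ifnar1 and Ifnar2, and interferon gamma binds Ifngr1 and Ifngr2. Kinases of the JAK family then activate STAT proteins. Stat2 and Irf9 are parts of the complex ISGF3, which binds a DNA element called the ISRE, whereas the response to interferon gamma acts mainly through the GAS element. The target genes encode sensors of viral nucleic acid, antiviral effectors, GTPases that attack the vacuoles of intracellular pathogens, and proteins that shut the signal off. In brain, microglia, astrocytes, neurons and infiltrating leukocytes can all respond to interferon, and the bulk tissue measured here mixes them with tumor cells.

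The promoters of 7 of the genes are printed first, as examples of genes with and without the ISRE and with and without a change. They were chosen after the values were seen. RefSeq entries on GRCm38.p6 gave a window of 250 bases before to 50 bases after a listed start for 36 of the 49 genes. These genes had 42 windows, as some had more than 1 listed start. In 19 of the 42 windows the start was not the annotated boundary of the gene. Distances are counted from the start of the window, and a match near another start would be missed. The ISRE was searched as GAAA, 2 bases of any kind and a further GAAA, and the GAS element as TTCNNNGAA, on both strands. Below, the 250 bases before the start are given 5′ to 3′ on the strand of the gene, and capitals mark the ISRE matches, in which overlapping matches run together. Isg15, Bst2, Irgm1, Igtp and Rsad2 were higher in the tumors of both models and held matches. Ifi47 was higher in both without a match, and so was Oasl2, whose window is not printed. Socs1 passed the test in neither model although it held matches.
Isg15: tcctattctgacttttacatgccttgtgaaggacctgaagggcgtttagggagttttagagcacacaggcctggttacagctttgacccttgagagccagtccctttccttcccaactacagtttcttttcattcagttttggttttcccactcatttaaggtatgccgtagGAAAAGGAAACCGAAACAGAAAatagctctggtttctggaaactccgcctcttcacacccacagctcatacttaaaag
Bst2: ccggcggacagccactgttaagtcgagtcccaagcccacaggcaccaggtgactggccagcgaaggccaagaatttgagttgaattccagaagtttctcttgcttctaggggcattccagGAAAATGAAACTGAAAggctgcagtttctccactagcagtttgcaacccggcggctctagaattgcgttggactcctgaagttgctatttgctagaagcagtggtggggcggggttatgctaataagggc
Irgm1: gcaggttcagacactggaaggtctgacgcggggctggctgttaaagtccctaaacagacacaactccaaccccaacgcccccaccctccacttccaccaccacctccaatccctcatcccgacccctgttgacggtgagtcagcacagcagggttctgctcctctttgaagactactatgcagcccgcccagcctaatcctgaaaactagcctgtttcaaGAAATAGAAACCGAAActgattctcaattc
Igtp: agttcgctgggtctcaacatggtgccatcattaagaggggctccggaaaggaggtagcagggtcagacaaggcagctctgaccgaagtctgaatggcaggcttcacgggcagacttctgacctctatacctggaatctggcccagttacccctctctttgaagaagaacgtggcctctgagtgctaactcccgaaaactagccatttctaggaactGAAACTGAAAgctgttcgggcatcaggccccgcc
Rsad2: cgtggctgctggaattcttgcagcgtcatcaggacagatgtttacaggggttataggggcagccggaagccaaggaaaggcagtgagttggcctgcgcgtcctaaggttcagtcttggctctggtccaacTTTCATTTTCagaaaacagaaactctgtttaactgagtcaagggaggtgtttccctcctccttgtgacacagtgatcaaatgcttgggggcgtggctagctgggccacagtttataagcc
Ifi47: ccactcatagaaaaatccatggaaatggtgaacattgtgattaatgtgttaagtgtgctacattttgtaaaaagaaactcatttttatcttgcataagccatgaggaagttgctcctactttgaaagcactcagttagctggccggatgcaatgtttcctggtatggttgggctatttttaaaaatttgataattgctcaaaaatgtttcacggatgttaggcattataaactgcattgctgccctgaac
Socs1: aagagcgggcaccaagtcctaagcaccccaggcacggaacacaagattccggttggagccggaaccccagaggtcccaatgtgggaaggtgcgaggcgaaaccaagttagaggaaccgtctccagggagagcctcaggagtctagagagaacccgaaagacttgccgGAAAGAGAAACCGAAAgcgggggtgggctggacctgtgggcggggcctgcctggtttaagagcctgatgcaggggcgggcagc
The windows lie at chr4:156200819-156201068 (minus strand) for Isg15, chr8:71537473-71537722 (minus) for Bst2, chr11:48871421-48871670 (minus) for Irgm1, chr11:58199306-58199555 (plus) for Igtp, chr12:26456453-26456702 (minus) for Rsad2, chr11:49076337-49076586 (plus) for Ifi47 and chr16:10785537-10785786 (minus) for Socs1. Isg15 held 3 overlapping matches that began 78, 72 and 66 bases upstream of its start. Bst2 held a pair beginning 130 and 124 bases upstream, Irgm1 a pair at 30 and 24, and Socs1 a pair at 83 and 77. Igtp held 1 match at 34 bases and Rsad2 1 match at 120 bases, the latter on the opposite strand.

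An ISRE match lay in the window of 18 of the 36 genes with a promoter entry (50%), against 3.99% of the 27025 genes of the table. A GAS match lay in 10 of the 36 (27.8%), against 9.55% of all genes. The ISRE share was 11 of 25 (44%) among genes that were higher in the tumors of at least 1 model. Among the 3 tested genes that were higher in neither it was 2 (66.7%), namely Stat2 and Socs1 but not Cmpk2, and among the 8 genes that were not tested it was 5 (62.5%). A match describes the letters of the window and not a bound site.

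All 13 arrays were single-colour Illumina mouse BeadChips on 3 slides. The median raw signal ran from 175.7 to 209.1 on tumor arrays and from 116.9 to 142.1 on control arrays, and 43.46% to 47.52% of probes were above background. The correlation of replicate arrays over genes was 0.937 to 0.9603 in Nestin tumors, 0.9395 to 0.9545 in NG2 tumors and 0.9732 or more in either control group. On slide 1 were the first 2 tumors and controls of the Nestin model, and on slide 2 the 4 NG2 tumors and NG2 controls 1 and 2. The arrays numbered 3 of both control groups shared slide 3 with Nestin tumor 3. Nestin tumor 3 stood apart by choroid plexus genes, whose mean level was 12.1 there and at most 6.784 on the other arrays. Levels are log2 signals after background correction and quantile normalization, and differences are given ± the standard error of a limma fit on all 13 arrays, with p-values adjusted over all 11927 genes. A gene counted as higher or lower at an adjusted p under 0.05.

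The first comparison asked how the genes differed between the tumors of each model and control brain. Because the set was chosen with earlier results of these data known, the counts describe it and are not an independent test. In Nestin tumors 31 of the 36 tested genes were higher and 0 were lower, where 46.3% of all genes passed, 24.4% higher and 21.9% lower. In NG2 tumors 30 of the 36 were higher and 0 lower, where 50.7% of all genes passed, 26.6% higher and 24.1% lower. Over the 36 genes the median difference came to 2.07 log2 for the Nestin model and 2.05 for the NG2 model, where all genes had medians of 0.06 and 0.09. Placing genes that were not well above background in controls at their lower bounds gave medians of 1.87 and 2.03. The levels of tumors and controls did not overlap, with every tumor above every control, for 31 of the 36 genes in the Nestin model (31.1% of all genes) and 30 in the NG2 model (27% of all genes).

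The filter on dim probes bears on these counts, because 11 of the 36 genes reached it only with the help of tumor arrays and could hardly be lower in tumors. The other 25 genes were detected on at least 3 of the 6 control arrays. Of those 25, 22 were higher in Nestin tumors and 20 in NG2 tumors, with median differences of 2.29 and 2.16, where 23% and 24.7% of the 10846 genes that reached the filter in the same way were higher. With no filter at all, 29 of 45 genes were higher in Nestin tumors and 31 of 45 in NG2 tumors. Within slide 1 the count was 27 of 36 for the Nestin model and within slide 2 it was 26 of 36 for the NG2 model. On slide 3, which held 1 Nestin tumor and 1 Nestin control, the tumor was above the control for 34 of 36 genes, with a median difference of 1.71. Without Nestin tumor 3 the Nestin count was 29.

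**Figure D1:**
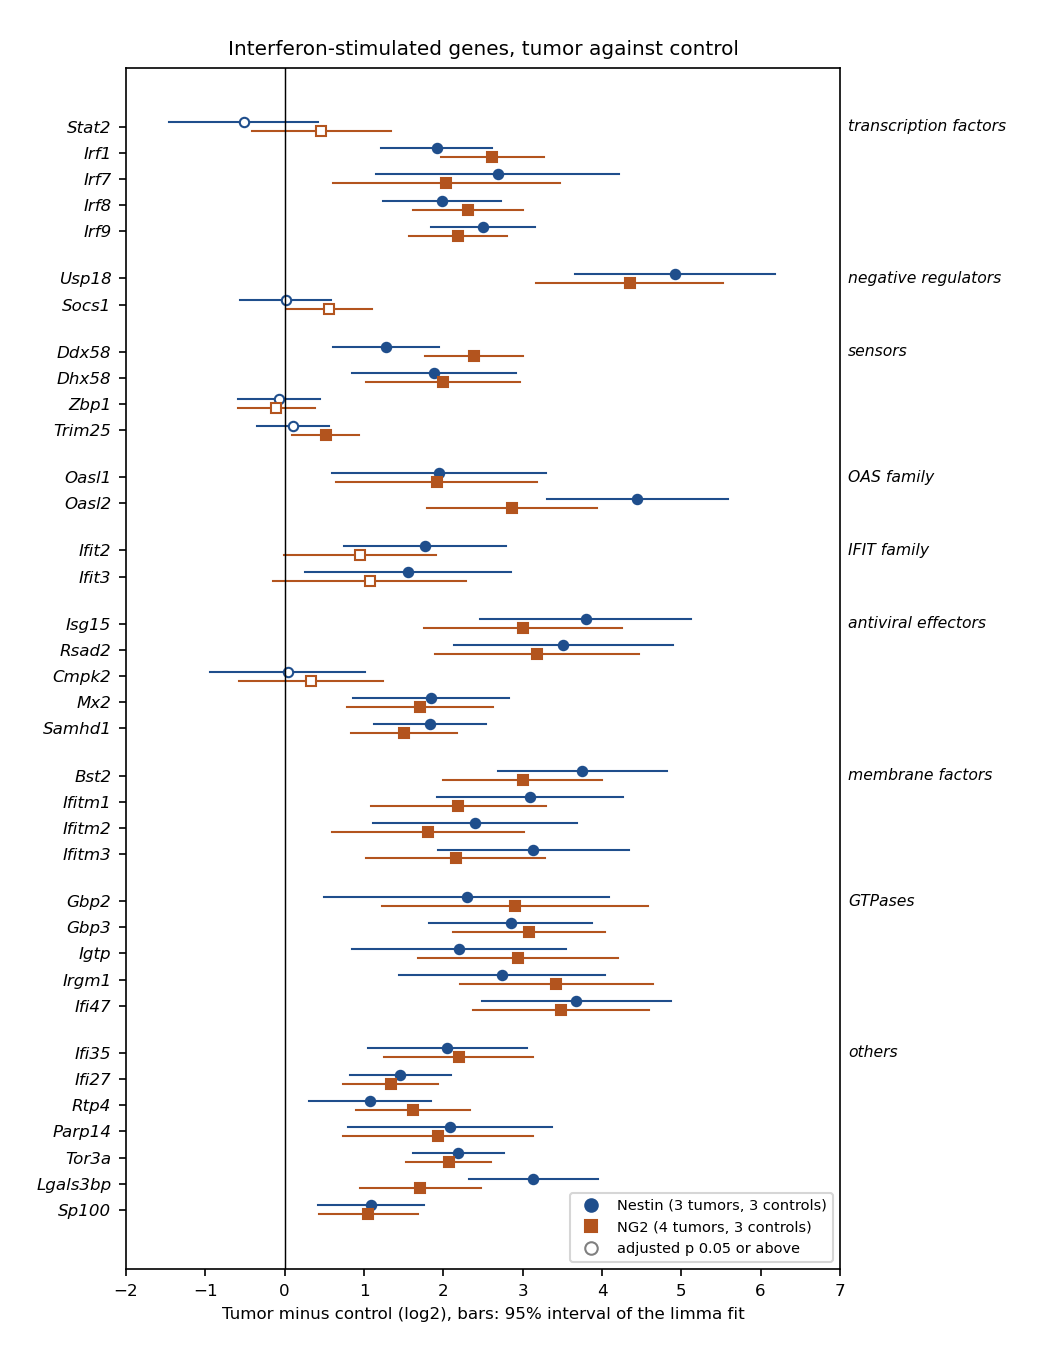
Difference between tumor and control (log2, horizontal axis) for each of the 36 tested interferon-stimulated genes, grouped by role. Points are limma estimates for the Nestin model (circles, 3 tumors and 3 controls) and the NG2 model (squares, 4 tumors and 3 controls), bars are 95% intervals, and open symbols did not pass. Most genes lie between 1 and 4 in both models, Usp18 reaches 4.92 in the Nestin model, and Stat2, Socs1, Zbp1 and Cmpk2 lie near 0.

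Of the 5 transcription factor genes, 4 were higher in both models and Stat2 passed in neither. Irf1, a factor induced by interferon gamma, was higher by 1.92 ± 0.32 in Nestin tumors and 2.62 ± 0.30 in NG2 tumors (adjusted p = 0.000311 and 8.61e-06). Irf9, the DNA-binding subunit of ISGF3, was higher by 2.49 ± 0.31 and 2.19 ± 0.29 (adjusted p = 2.11e-05 and 2.54e-05). Its partner Stat2 differed by -0.52 ± 0.44 and 0.46 ± 0.41 (adjusted p = 0.355 and 0.366), with levels of 7.14, 7.62 and 7.58 in Nestin controls, 6.42, 7.53 and 6.85 in Nestin tumors, 6.85, 7.24 and 7.01 in NG2 controls and 7.38, 8.44, 7.80 and 6.36 in NG2 tumors. Tumors and controls of both models thus overlapped for Stat2, and NG2 tumor 4 was below its controls while the other NG2 tumors were above theirs. Irf8, a factor of microglia and other myeloid cells, was at least 3.23-fold higher in Nestin tumors, where no control array was above background, and was higher by 2.31 ± 0.32 in NG2 tumors (adjusted p = 0.000372 and 4.61e-05).

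Irf7, the factor that amplifies type I interferon production, was above background on no control array. Its levels were 6.61, 8.51 and 6.70 in Nestin tumors and 6.14, 8.63, 7.75 and 5.12 in NG2 tumors, while the 6 controls ran from 4.43 to 5.01. NG2 tumor 4, with 5.12, lay just above the highest control. Irf7 was at least 3.63-fold higher in Nestin tumors and at least 2.9-fold higher in NG2 tumors (adjusted p = 0.00696 and 0.0202). In Nestin tumors the fitted difference moved from 2.69 to 2.05 without Nestin tumor 2. In NG2 tumors the call was lost under 8 of 27 alternatives. Among them were leaving out NG2 tumor 2 (1.45), NG2 tumor 3 (1.75), NG2 control 1 (1.99) or NG2 control 3 (2.04), and slide as a block (2.03).

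The pair of genes that restrain the response moved differently. Usp18, a protease that removes Isg15 from other proteins and blocks the type I receptor, had the largest difference of the set in both models. Its levels were 5.85, 6.42 and 6.58 in Nestin controls, 11.11, 11.78 and 10.72 in Nestin tumors, 6.32, 7.06 and 6.38 in NG2 controls and 10.21, 12.61, 11.28 and 9.63 in NG2 tumors. Every tumor was above every control by more than 2 log2 units. The difference was 4.92 ± 0.58 in Nestin tumors (30.3-fold, adjusted p = 1.65e-05) and 4.35 ± 0.55 in NG2 tumors (20.4-fold, adjusted p = 1.82e-05). Socs1, an inhibitor of JAK kinases, was above background on 1 of 6 control arrays and 2 of 7 tumor arrays and differed by 0.01 ± 0.27 in Nestin tumors (adjusted p = 0.976). In NG2 tumors it differed by 0.56 ± 0.25 (adjusted p = 0.0766), and it passed at 0.71 without NG2 tumor 4.

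Of the 7 sensor genes and their partners, 4 were tested. Ddx58, which encodes the RNA sensor RIG-I, had levels of 5.19, 5.31 and 5.21 in Nestin controls and 6.10, 6.93 and 6.52 in Nestin tumors. In NG2 controls it was at 5.32, 5.31 and 5.34, and in NG2 tumors at 6.86, 8.04, 7.97 and 7.98. NG2 tumor 1 stood below the other 3 NG2 tumors, and no tumor overlapped with a control. Ddx58 was at least 2.14-fold higher in Nestin tumors and higher by 2.39 ± 0.29 in NG2 tumors (adjusted p = 0.00393 and 1.28e-05). Dhx58, which encodes LGP2, a relative of RIG-I, was higher by 1.88 ± 0.48 and 1.99 ± 0.45 (adjusted p = 0.00571 and 0.0022). Zbp1, a sensor of Z-form nucleic acid, was above background on all 13 arrays and differed by -0.07 ± 0.24 and -0.11 ± 0.23 (adjusted p = 0.839 and 0.714). Trim25, a ubiquitin ligase that acts on RIG-I, differed by 0.10 ± 0.21 in Nestin tumors (adjusted p = 0.722). In NG2 tumors Trim25 was at least 1.16-fold higher (adjusted p = 0.041), and its groups overlapped. The Trim25 call was lost under 9 of 23 alternatives. Among them were leaving out NG2 control 2 (0.52), NG2 control 3 (0.41), Nestin tumor 3 (0.51) or Nestin control 3 (0.53). Ifih1, which encodes the RNA sensor MDA5, and Ifi204, a DNA sensor gene, were above background on 0 of 13 arrays.

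Both tested genes of the OAS family, whose founding members make the oligoadenylates that activate RNase L, were higher in both models. Oasl2 had levels of 5.84, 6.19 and 6.20 in Nestin controls, 10.47, 11.21 and 9.89 in Nestin tumors, 6.86, 6.88 and 6.94 in NG2 controls and 9.41, 10.88, 10.48 and 8.27 in NG2 tumors. Its NG2 controls were within 0.1 log2 units of each other and NG2 tumor 4 was the closest tumor to them. The difference was 4.45 ± 0.53 in Nestin tumors and 2.87 ± 0.50 in NG2 tumors (adjusted p = 1.72e-05 and 0.000291). The other probe of Oasl2, above background on 6 arrays, gave 2.6 ± 0.58 and 1.66 ± 0.55. Oasl1, which in mouse limits the translation of Irf7, was above background on no control array and had levels of 6.37, 7.46 and 6.61 in Nestin tumors and 5.79, 7.87, 8.09 and 5.05 in NG2 tumors. NG2 tumors 1 and 4 were well below NG2 tumors 2 and 3. Oasl1 was at least 2.64-fold higher in Nestin tumors and at least 2.5-fold higher in NG2 tumors (adjusted p = 0.0207 and 0.0144). In the Nestin model its fitted difference did not pass under 4 of 27 alternatives. Among them were leaving out Nestin tumor 2 (1.61), Nestin control 1 (1.95) or Nestin control 2 (1.93). In NG2 tumors the Oasl1 difference did not pass under 2 of 27 alternatives, among them slide as a block (1.88). Oas1a and Oas3 were above background on 0 of 13 arrays.

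The IFIT genes, which encode proteins that bind viral RNA, passed in the Nestin model alone, and the difference between the models did not pass. Ifit2 was higher by 1.77 ± 0.48 in Nestin tumors (adjusted p = 0.00762). In NG2 tumors it differed by 0.95 ± 0.44 (adjusted p = 0.0902), where it passed once NG2 tumor 1 (1.17), NG2 control 3 (1.35) or NG2 tumor 4 (1.23) was left out. Ifit3 differed by 1.55 ± 0.60 in Nestin tumors with an adjusted p of 0.0491, which was lost under 17 of 27 alternatives, among them leaving out Nestin tumor 2 (1.03), Nestin tumor 3 (1.78), any 1 of the Nestin controls (1.40 to 1.66), NG2 tumor 1 (1.55) or any 1 of the NG2 controls (1.55). In NG2 tumors Ifit3 differed by 1.07 ± 0.56 (adjusted p = 0.13) and passed at 1.64 without NG2 tumor 4, whose level of 9.59 was under all 3 NG2 controls. Ifit1 was above background on 0 of 13 arrays.

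Of the other antiviral effectors 5 were tested, and 4 were higher in both models. Isg15 encodes a ubiquitin-like protein that is attached to other proteins, and its promoter held the 3 overlapping ISRE matches shown above. Its levels were 6.39, 5.96 and 6.63 in Nestin controls, 10.44, 10.17 and 9.76 in Nestin tumors, 6.02, 7.20 and 7.21 in NG2 controls and 8.74, 10.86, 11.15 and 8.50 in NG2 tumors. The Nestin tumors lay close together, whereas NG2 tumors 1 and 4 were more than 2 log2 units below NG2 tumors 2 and 3. Isg15 was higher by 3.79 ± 0.62 and 3.00 ± 0.58 (adjusted p = 0.000233 and 0.000688). Rsad2 encodes viperin, an enzyme that makes a chain-terminating nucleotide. It was at 6.30, 7.08 and 5.83 in Nestin controls, 10.09, 10.14 and 9.52 in Nestin tumors, 6.10, 6.96 and 6.60 in NG2 controls and 9.03, 11.09, 10.78 and 8.03 in NG2 tumors. The order of the NG2 tumors again set tumors 2 and 3 above tumors 1 and 4, and no tumor overlapped with a control. Rsad2 was higher by 3.51 ± 0.64 and 3.18 ± 0.60 (adjusted p = 0.00055 and 0.000573).

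Cmpk2, a mitochondrial nucleotide kinase gene, is the neighbour of Rsad2 on chromosome 12 with 0 protein-coding genes between them, and passed in neither model. It differed by 0.04 ± 0.45 and 0.33 ± 0.42 (adjusted p = 0.956 and 0.542) and was above background on all 13 arrays. Its levels were 9.38, 9.02 and 8.74 in Nestin controls and 9.22, 9.14 and 8.90 in Nestin tumors, and 9.04, 8.81 and 9.27 in NG2 controls and 8.86, 10.54, 9.87 and 8.21 in NG2 tumors. NG2 tumors 2 and 3 were thus above their controls and NG2 tumor 4 below them. Mx2, a dynamin-like antiviral GTPase gene, was higher by 1.85 ± 0.46 and 1.70 ± 0.43 (adjusted p = 0.00465 and 0.00448). Samhd1, which degrades deoxynucleotides, was higher by 1.83 ± 0.33 and 1.51 ± 0.31 (adjusted p = 0.0005 and 0.00109).

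All 4 membrane factor genes were higher in both models. Bst2 encodes tetherin, which holds budding virus at the cell surface. Its levels were 5.61, 5.71 and 6.38 in Nestin controls, 9.20, 10.20 and 9.56 in Nestin tumors, 5.87, 6.24 and 5.85 in NG2 controls and 8.51, 10.05, 9.64 and 7.74 in NG2 tumors. Every tumor was above every control, and NG2 tumor 4 was again the lowest. Bst2 was higher by 3.75 ± 0.50 and 3.00 ± 0.47 (adjusted p = 4.29e-05 and 0.000115).

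The IFITM genes, 3 neighbours on chromosome 7 whose proteins block virus entry, had the largest SDs among Nestin tumors. Ifitm1 was at 9.13, 8.004 and 9.35 in Nestin controls, 10.95, 13.24 and 11.58 in Nestin tumors, 8.88, 10.02 and 9.89 in NG2 controls and 12.53, 11.73, 11.77 and 11.10 in NG2 tumors. Ifitm2 was at 8.41, 7.36 and 8.89, then 9.56, 11.85 and 10.44 in Nestin tumors, and at 8.21, 9.14 and 8.91, then 11.57, 9.62, 9.98 and 11.06 in NG2 tumors. Ifitm3 was at 9.27, 7.93 and 9.22, then 11.14, 13.24 and 11.44, and at 8.83, 9.72 and 10.34, then 12.47, 11.98, 11.69 and 11. In all 3 genes Nestin tumor 2 and NG2 tumor 1 were the highest of their models, and no tumor overlapped with its controls. Ifitm1 and Ifitm3 read closely alike on most arrays, and whether their probes measure both genes separately was not tested.

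The differences of the IFITM genes were 3.10 ± 0.55, 2.40 ± 0.60 and 3.13 ± 0.56 in Nestin tumors and 2.19 ± 0.51, 1.81 ± 0.56 and 2.16 ± 0.52 in NG2 tumors, for Ifitm1, Ifitm2 and Ifitm3 (adjusted p = 0.000413, 0.00487 and 0.000466, then 0.00268, 0.0155 and 0.0036). Without Nestin tumor 2 the Nestin differences were 2.44, 1.79 and 2.49. Ifitm2 in NG2 tumors did not pass without NG2 control 1 (1.54), nor with the replicate number as a block (1.64). The other probe of Ifitm1 gave 0.57 ± 0.67 and -0.65 ± 0.62, and with the mean of both probes the NG2 difference was 0.77 and did not pass. Of the 13 tested genes with several probes, Ifitm1 was the only 1 whose probes differed in sign in a comparison of tumors with controls.

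**Figure D2:**
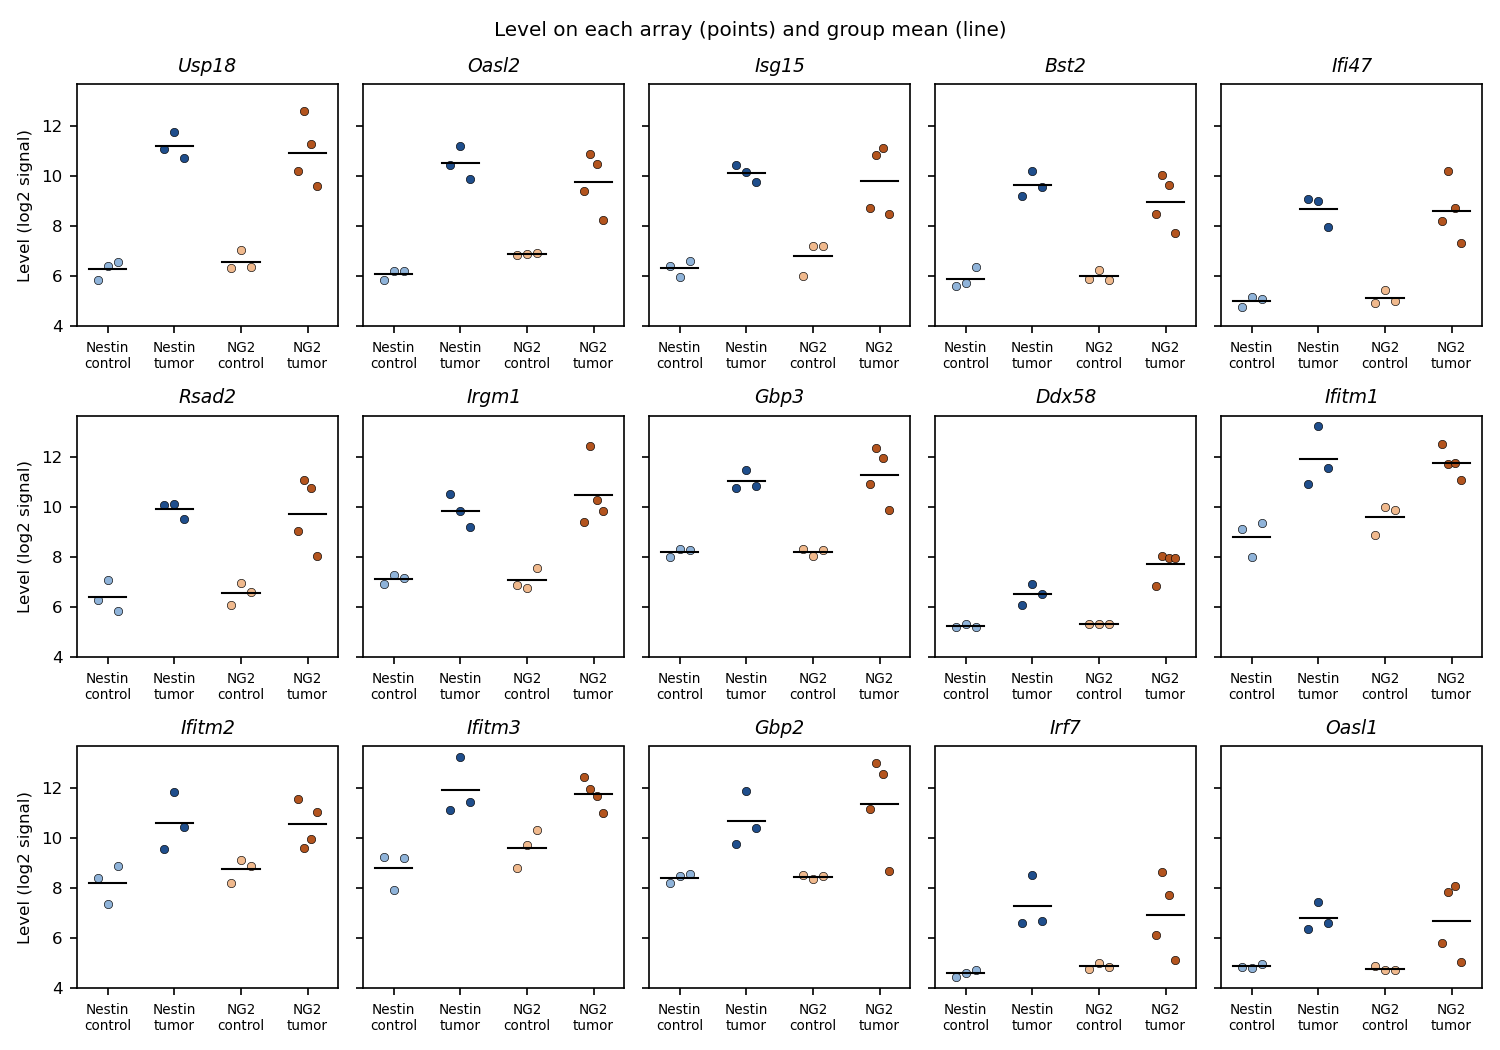
Level (log2 signal, vertical axis) on each of the 13 arrays for 15 of the genes, with 1 panel per gene, points for arrays and lines for group means. The Usp18 points of all 7 tumors lie between 9.63 and 12.61, above the 6 controls at 5.85 to 7.06, while for Gbp2 NG2 tumor 4 (8.70) lies beside its controls.

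All 5 tested GTPase genes were higher in both models. Ifi47, an immunity-related GTPase gene, was at 4.78, 5.16 and 5.08 in Nestin controls, none above background, and at 9.09, 8.99 and 7.96 in Nestin tumors. In NG2 controls it was at 4.93, 5.46 and 5.00 and in NG2 tumors at 8.19, 10.23, 8.74 and 7.31. All tumors were far from the controls, with NG2 tumor 2 the highest. Ifi47 was at least 9.62-fold higher in Nestin tumors and higher by 3.49 ± 0.52 in NG2 tumors (adjusted p = 0.000119 and 7.79e-05). Irgm1, a GTPase that regulates others of the family, was at 6.94, 7.29 and 7.17, then 10.54, 9.84 and 9.23 in the Nestin model, and at 6.87, 6.76 and 7.59, then 9.40, 12.46, 10.29 and 9.84 in the NG2 model. NG2 tumor 2 lay more than 2 log2 units above the next NG2 tumor. Irgm1 was higher by 2.74 ± 0.61 and 3.43 ± 0.57 (adjusted p = 0.00216 and 0.000199), and by 2.76 in NG2 tumors without NG2 tumor 2. Its other probe, above background on 6 arrays, gave 0.66 ± 0.46 in Nestin tumors and 2.02 ± 0.43 in NG2 tumors.

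Gbp3, a guanylate-binding protein gene, was at 7.99, 8.32 and 8.27 in Nestin controls, 10.78, 11.50 and 10.86 in Nestin tumors, 8.33, 8.04 and 8.29 in NG2 controls and 10.95, 12.38, 11.97 and 9.89 in NG2 tumors. The controls of both models lay close together, and all tumors were above them. Gbp3 was higher by 2.85 ± 0.48 and 3.08 ± 0.45 (adjusted p = 0.000282 and 6.49e-05). Gbp2, its near neighbour on chromosome 3, was at 8.20, 8.47 and 8.56, then 9.78, 11.90 and 10.43 in the Nestin model, and at 8.52, 8.37 and 8.50, then 11.19, 13.02, 12.57 and 8.70 in the NG2 model. NG2 tumor 4 was within 0.2 log2 units of the highest control, and the SD among NG2 tumors (1.94) was the largest of the set. Gbp2 was higher by 2.29 ± 0.83 and 2.91 ± 0.78 (adjusted p = 0.0366 and 0.00677), and by 3.80 in NG2 tumors without NG2 tumor 4. In the Nestin model it did not pass under 10 of 27 alternatives. Among them were leaving out any 1 of Nestin tumor 2 (1.70), Nestin tumor 3 (2.43) or the Nestin controls (2.19 to 2.37). Igtp, another immunity-related GTPase gene, was higher by 2.19 ± 0.63 and 2.94 ± 0.59 (adjusted p = 0.0109 and 0.000882), the latter by 2.32 without NG2 tumor 2. Iigp1 was above background on 0 of 13 arrays.

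The 7 tested genes of other function were higher in both models. Lgals3bp, which encodes a secreted glycoprotein that binds galectins, was higher by 3.13 ± 0.38 in Nestin tumors and 1.71 ± 0.35 in NG2 tumors (adjusted p = 1.92e-05 and 0.00117). Tor3a, an ATPase gene of the torsin family, was at least 3.63-fold higher in Nestin tumors and higher by 2.07 ± 0.25 in NG2 tumors, with SDs among the tumors of 0.40 and 0.29. Ifi35 was at least 3.15-fold higher in Nestin tumors and higher by 2.19 ± 0.44 in NG2 tumors. Ifi27 was higher by 1.46 ± 0.30 and 1.33 ± 0.28, and Sp100, a nuclear body protein gene, by 1.09 ± 0.31 and 1.06 ± 0.29. Parp14, an ADP-ribosyltransferase gene, was higher by 2.09 ± 0.60 and 1.94 ± 0.56 and in the Nestin model did not pass without Nestin tumor 2 (1.49). Rtp4, a receptor-transporter gene, was at least 1.34-fold higher in Nestin tumors and at least 2.14-fold in NG2 tumors. Its fitted Nestin difference of 1.07 did not pass under 6 of 27 alternatives. Among them were leaving out Nestin tumor 2 (0.85), Nestin control 1 (1.01) or Nestin control 2 (1.08). Adjusted p-values in this group ran from 1.21e-05 to 0.0244. Xaf1 and Parp9 were above background on 0 of 13 arrays.

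The tumors of a model differed from each other more in these genes than genes did in general, and the NG2 tumors did so most. The median SD of the 36 genes was 0.92 log2 among NG2 tumors, where the median over all genes was 0.35, and 0.52 among Nestin tumors, where it was 0.30. In controls it was 0.25 and 0.23, against 0.22 and 0.28 over all genes. An SD above 1 was found for 15 of 36 genes in NG2 tumors (6.24% of all genes) and 6 of 36 in Nestin tumors (6.06%). The median distance of the 36 genes from the control mean was 1.67, 2.74, 2.34 and 1.37 log2 in NG2 tumors 1 to 4 and 1.71, 2.65 and 1.80 in Nestin tumors 1 to 3. These are descriptions of 3 or 4 tumors, and no test of a difference in spread was made.

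The order of the tumors was shared by many of the genes. NG2 tumor 2 was the highest of its group for 25 of 36 genes and NG2 tumor 4 the lowest for 27, where these arrays were highest or lowest for 24.7% and 27.5% of all genes. Nestin tumor 2 was the highest of its group for 27 of 36 genes (33.7% of all genes). The IFITM genes departed from the order in the NG2 model. NG2 tumor 1 was the highest for all 3 of them and for 0 of the 33 other genes, whereas NG2 tumor 2 was the highest for 25 of those 33 and for 0 of the IFITM genes. Since Ifitm1 and Ifitm3 read closely alike, the IFITM genes may not be 3 separate measurements. In NG2 tumor 4 only 19 of 36 genes lay at least 1 log2 unit above their control mean, against 29, 33 and 30 in NG2 tumors 1 to 3.

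**Figure D3:**
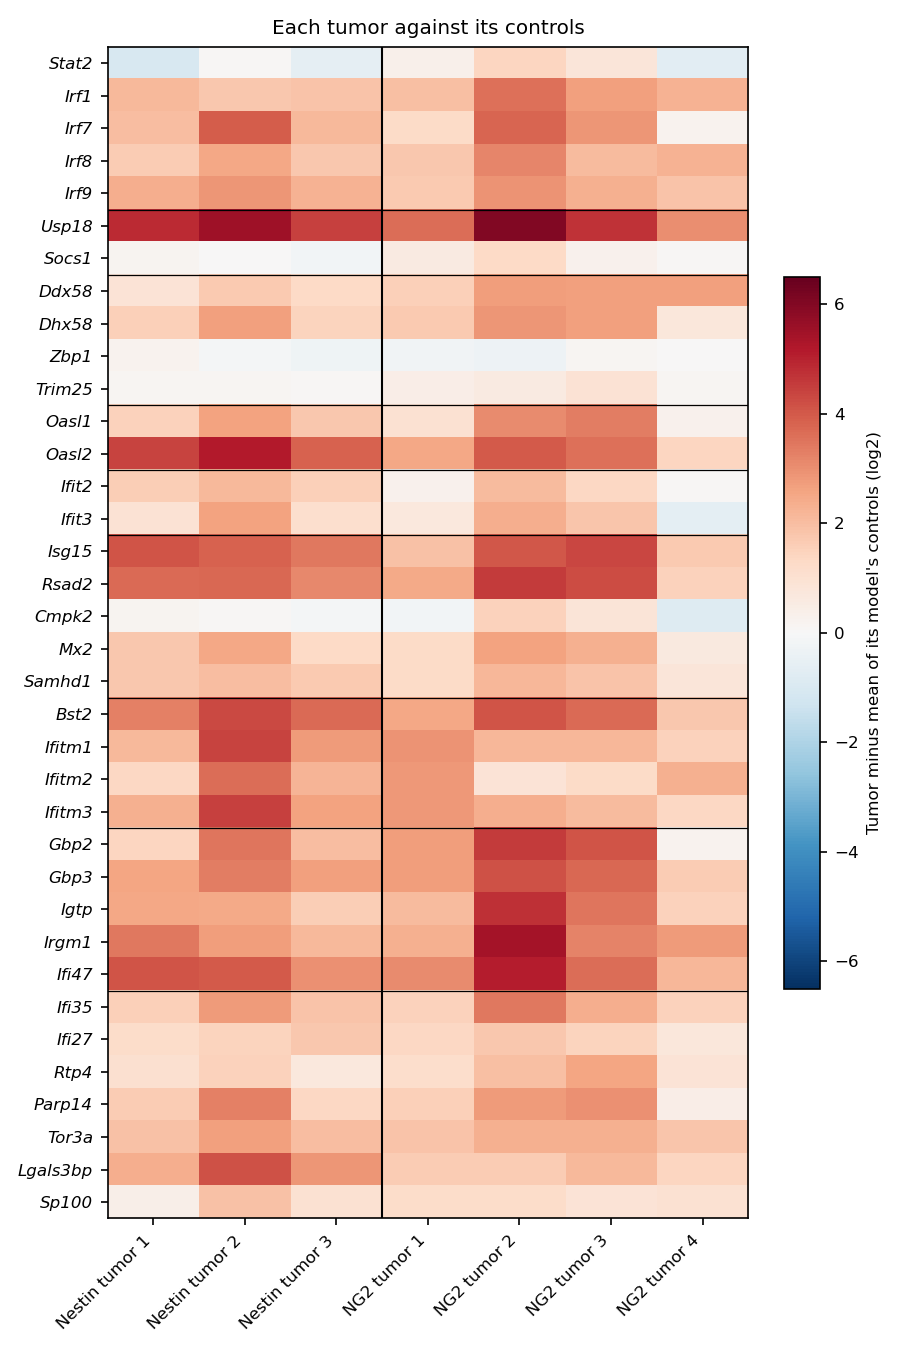
Level in each of the 7 tumors minus the mean of the controls of its model (log2, colour) for the 36 tested genes, with black lines between roles and between models. Columns NG2 tumor 2 and Nestin tumor 2 are the darkest, with medians of 2.74 and 2.65, NG2 tumor 4 is the palest at 1.37, and the IFITM rows are darkest in NG2 tumor 1 among the NG2 tumors.

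Nestin and NG2 tumors were then compared directly, to ask whether the genes depended on the model. Of the 36 genes, Ddx58 was the only 1 that passed, with a lower level in Nestin tumors (-1.20 ± 0.29 log2, adjusted p = 0.0213), where 8.99% of all genes passed in either direction and 3.45% were lower. At an unadjusted p under 0.05 there were 3 genes, against 25.4% of all genes. Ddx58 did not pass without Nestin tumor 1 (-0.99), Nestin tumor 3 (-1.19) or NG2 tumor 4 (-1.10). With slide as a fixed block the difference was -1.24 with an adjusted p of 0.629, and with slide as a random block it was -1.19 with an adjusted p of 0.00576. No slide held tumors of both models, and the fixed block links the slides through slide 3 alone. For the other 35 genes the difference ran from -1.12 in Mx2 to 0.77. The 95% interval lay within 1 log2 unit of 0 for 8 of the 36 genes, and the intervals of the rest reached further, to -2.34 in Gbp2, so that larger differences were not excluded for those genes.

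The controls of the models were compared in the same way, and 0 of the 36 genes passed in the limma fit, against 3.47% of all genes. Mx2 was at 5.20, 5.13 and 5.56 in Nestin controls and at 6.78, 6.29 and 6.61 in NG2 controls (-1.26 ± 0.46, adjusted p = 0.205), and was the only 1 of the 36 with an unadjusted p under 0.05, against 13.2% of all genes. The difference between the tumor effects of the models also passed for 0 of the 36 genes (3.8% of all genes), with 3 genes at an unadjusted p under 0.05 (18.8% of all genes). It was 1.58 ± 0.73 for Oasl2 (adjusted p = 0.26), 1.43 ± 0.52 for Lgals3bp (adjusted p = 0.149) and -1.11 ± 0.42 for Ddx58 (adjusted p = 0.17). The other probe of Oasl2 gave 0.94 ± 0.80. Ddx58 passed at -1.39 without NG2 tumor 1.

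The genes that make, receive and transmit interferon were taken from a list of 49 others in the pathway, of which 32 were measured. In Nestin tumors 13 of these were higher and 1 lower, and in NG2 tumors 14 were higher and 2 lower, with median differences of 0.61 and 0.69. Over all genes 24.4% were higher and 21.9% lower in Nestin tumors, and 26.6% and 24.1% in NG2 tumors, and the counts by role below are to be read against these shares. Of 12 ligand genes, Ifnb1, Ifng, Ifna2, Ifna4, Ifna5, Ifna11, Ifna13, Ifnk and Ifnl3 were above background on 0 of 13 arrays. The same held for the neuron marker Snap25, which had 2 probes, also in control brain. Such a reading therefore does not show that a transcript was absent. Ifna1 was above background on all 13 arrays at 5.35 to 5.98 and differed by -0.17 ± 0.20 and -0.01 ± 0.19 (adjusted p = 0.535 and 0.974). Its paralogs share much of their sequence, so that the Ifna1 signal cannot be assigned to Ifna1 alone. Ifne passed in neither model, and Ifnl2 had no named probe.

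The receptor and kinase genes had 2 higher of 8 measured in Nestin tumors and 5 higher and 1 lower in NG2 tumors. The Nestin count is close to the 24.4% of all genes that were higher, whereas 26.6% of all genes were higher in NG2 tumors. Ifnar1 was above background on 0 of 13 arrays. Ifnar2 was at 6.34, 5.36 and 6.20 in Nestin controls, 6.28, 6.14 and 6.32 in Nestin tumors, 6.25, 6.11 and 6.60 in NG2 controls and 7.08, 7.28, 6.80 and 7.99 in NG2 tumors. All NG2 tumors were thus above the other arrays. Ifnar2 was higher by 0.96 ± 0.30 in NG2 tumors (adjusted p = 0.0166) and differed by 0.28 ± 0.32 in Nestin tumors (adjusted p = 0.507). The direct difference between the tumors was -1.04 ± 0.30 (adjusted p = 0.0482) and was lost under 17 of 26 alternatives. In the NG2 model the call was lost under 7 of 27 alternatives. Among them were leaving out NG2 tumor 2 (0.56), NG2 tumor 4 (0.56) or any 1 of the NG2 controls (0.53 to 0.94).

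Of the interferon gamma receptor chains, Ifngr1 was at 8.27, 8.78 and 8.49, then 9.45, 9.51 and 9.23 in the Nestin model, and at 8.53, 8.38 and 8.07, then 9.94, 8.91, 9.87 and 10.54 in the NG2 model. Every tumor was above its controls. Ifngr1 was higher by 0.89 ± 0.33 and 1.49 ± 0.31 (adjusted p = 0.042 and 0.00119), and in the Nestin model it was lost under 12 of 27 alternatives, among them leaving out any 1 of the Nestin tumors (0.83 to 0.96), Nestin control 1 (0.76), Nestin control 3 (0.87), NG2 tumor 3 or NG2 control 2 (0.89 for both). Ifngr2 was at 7.82, 7.99 and 8.53, then 7.18, 7.74 and 7.997 in the Nestin model, and at 7.43, 7.60 and 7.05, then 8.03, 8.46, 8.29 and 8.87 in the NG2 model. The Nestin tumors overlapped with their controls, and the NG2 tumors were all above theirs. Ifngr2 was higher by 1.05 ± 0.29 in NG2 tumors (adjusted p = 0.00719) and differed by -0.48 ± 0.31 in Nestin tumors (adjusted p = 0.22), and the difference between the effects was -1.53 ± 0.42 with an adjusted p of 0.0594. Of the lambda interferon receptor, the shared chain Il10rb was higher by 1.30 ± 0.37 and 1.71 ± 0.35 (adjusted p = 0.0115 and 0.00107). In the Nestin model Il10rb did not pass under 3 of 27 alternatives, among them leaving out Nestin tumor 2 (0.96) or Nestin control 2 (1.08). The other chain of that receptor, Ifnlr1, was higher by 1.64 ± 0.57 in NG2 tumors (adjusted p = 0.0288). This call was lost under 10 of 27 alternatives, among them leaving out NG2 tumor 3 (1.12), NG2 tumor 4 (1.40) or any 1 of the NG2 controls (1.60 to 1.68). In Nestin tumors Ifnlr1 differed by 0.71 ± 0.61 (adjusted p = 0.367). Jak1, a kinase of the type I and interferon gamma receptors, was lower in NG2 tumors (-1.79 ± 0.33, adjusted p = 0.000413) and differed by -0.17 ± 0.35 in Nestin tumors (adjusted p = 0.714).

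Of 4 measured transcription factors of the list, 2 were higher in each model. Irf3, which induces interferon after viral sensing, was at 10.61, 10.78 and 10.40, then 11.31, 11.70 and 11.33 in the Nestin model, and at 10.87, 10.90 and 10.39, then 11.27, 11.43, 11.25 and 11.69 in the NG2 model. Every tumor was above its controls by a small distance. Irf3 was higher by 0.85 ± 0.21 and 0.69 ± 0.19 (adjusted p = 0.004 and 0.0088). In the NG2 model it did not pass under 3 of 27 alternatives, among them leaving out NG2 control 3 (0.52). Stat3, a factor activated by cytokines of the interleukin-6 family, was higher by 1.14 ± 0.21 and 1.59 ± 0.20 (adjusted p = 0.00063 and 1.77e-05). Of 7 measured sensing adaptors and kinases 5 were higher in Nestin tumors (24.4% of all genes) and 3 in NG2 tumors (26.6%). They included Myd88 and Mavs, adaptors of Toll-like receptors and of RIG-I, at 1.86 ± 0.27 and 1.10 ± 0.24 in Nestin tumors and 1.31 ± 0.25 and 1.15 ± 0.23 in NG2 tumors.

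Of 11 genes that restrain the pathway 4 were higher and 1 lower in each model, not far from the 24.4% and 26.6% of all genes that were higher. Socs3, an inhibitor of JAK kinases, rose in both. It was at 6.96, 6.73 and 6.59 in Nestin controls, 11.36, 10.82 and 11.81 in Nestin tumors, 7.47, 7.17 and 7.07 in NG2 controls and 11.03, 11.17, 10.74 and 10.08 in NG2 tumors. Tumors and controls lay more than 2 log2 units apart in both models. Socs3 was higher by 4.57 ± 0.31 and 3.52 ± 0.29 (adjusted p = 1.17e-07 and 3.28e-07), while Socs1 passed in neither. Adar, an RNA-editing enzyme that keeps cellular RNA from being sensed, was lower in both models (-1.14 ± 0.23 and -1.67 ± 0.21, adjusted p = 0.00104 and 2.07e-05), and under median scaling the Nestin difference was -0.59 and did not pass. Rnaseh2b, a subunit of an enzyme that removes ribonucleotides from DNA, was higher by 1.57 ± 0.32 and 2.66 ± 0.30 (adjusted p = 0.00122 and 6.58e-06).

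Markers of immune cells were measured on the same arrays, because in bulk tissue a change in the number of cells of a type and a change of RNA per cell cannot be told apart. The list of microglia and macrophage markers held 18 symbols, among them Emr1 and Adgre1, which name the same gene. Of the 18 symbols 12 were measured, and 6 were higher in Nestin tumors (24.4% of all genes). In NG2 tumors 3 were higher and 1 lower, where the share of higher genes was close to the 26.6% of all genes. Lyz2, the lysozyme gene of myeloid cells, was higher by 3.25 ± 0.46 and 2.86 ± 0.43 (adjusted p = 6.83e-05 and 8.34e-05). Tmem119, a marker of resident microglia, differed by -0.22 ± 0.46 and -0.65 ± 0.43 (adjusted p = 0.722 and 0.226). The mean level of the 12 markers was 8.81, 10.36 and 9.06 in Nestin tumors 1 to 3 and 9.31, 8.50, 9.07 and 8.60 in NG2 tumors 1 to 4, and ran from 8.05 to 8.54 in controls. Nestin tumor 2 was thus highest of its model in both this mean and the interferon-stimulated genes. NG2 tumor 2 was highest in the interferon-stimulated genes and lowest of the NG2 tumors in the mean. The mean joins opposite shifts and does not measure the number of these cells. In NG2 tumor 2, Lyz2 was at 11.78 (8.89 to 9.46 in NG2 controls) and Csf1r at 7.23 (8.14 to 8.73). Irf8 was highest of the NG2 tumors in NG2 tumor 2, at 8.57. The part of these cells in the result was not tested.

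The lists of other immune cells were mostly below background. Of 8 T cell markers 2 were measured, of 5 natural killer cell markers 1, of 4 B cell markers 1, of 3 plasmacytoid dendritic cell markers 1 and of 5 neutrophil markers 3, and 0 of these were higher in either model. The plasmacytoid dendritic cell marker, Siglech, which microglia also express, was lower in NG2 tumors (-2.31 ± 0.56, adjusted p = 0.00337) and differed by -1.33 ± 0.59 in Nestin tumors (adjusted p = 0.0813). The T cell genes Cd3d, Cd8a and Cd4 were above background on 0 of 13 arrays. The mean level of the T cell list was 7.84 to 8.49 in the tumors and 7.82 to 8.28 in the controls of the Nestin model, and for NG2 arrays 7.46 to 8.21 and 7.57 to 8.04 respectively. That mean joins Cd8b1, with group means of 10.45 to 10.84, and Cd3e, with group means of 4.89 to 5.42. Cd3e was above background on at most 1 array of any group. The mean thus rests mainly on Cd8b1, and no T cell level can be read from it. All 4 measured neuron markers and all 3 measured oligodendrocyte markers were lower in the tumors of both models, and both measured genes of dividing cells were higher. The neuron marker Snap25 was above background on 0 of 13 arrays, also in control brain, so a marker below background is not shown to be absent. All 4 astrocyte markers were lower in NG2 tumors (median -2.20), whereas 1 of 4, Aldh1l1, was lower in Nestin tumors (median -0.33). In the direct comparison 2 of the 4, Aqp4 and Slc1a2, were higher in Nestin than in NG2 tumors (2.29 ± 0.59 and 3.00 ± 0.40, adjusted p = 0.0283 and 0.00121). The part of these shifts in the differences of the interferon-stimulated genes was not tested.

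**Figure D4:**
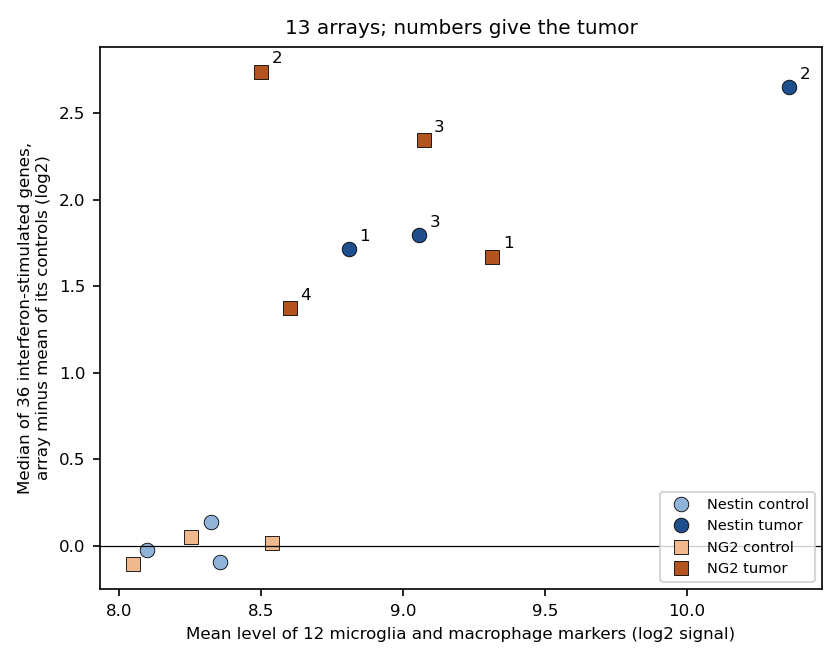
Median difference of the 36 interferon-stimulated genes from the control mean (log2, vertical axis) against the mean level of 12 microglia and macrophage markers (log2 signal, horizontal axis) on 13 arrays, with tumors numbered. The controls lie near 0, Nestin tumor 2 is far to the right at 10.36, and NG2 tumor 2 is the highest point (2.74) at a marker level of 8.50, close to the controls. The marker mean joins markers above and below their control levels, so it does not measure the number of these cells.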

How the data were processed

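RNA from flash-frozen brain tissue was biotin-labelled and hybridised to Illumina mouse BeadChips, per the labels' protocols. The deposited non-normalized table gives, for each probe and array, a linear signal intensity and a detection p-value, and no label or header names its background step. The authors also deposited a table of normalized log2 values, whose method no label or header names. It was used as an alternative.

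The intensities were background-corrected from the detection p-values, quantile-normalized and set to log2 with neqc of limma 3.58.1 (R 4.3.3, offset 16). Probes with a detection p under 0.05 on at least 3 of 13 arrays were kept (23904 of 45281). The platform annotation names 1 gene for 32093 probes, several for 16 and none for 13172. Each gene was represented by its probe with the highest mean level, which left 11927 genes. A limma fit of 4 group means on all 13 arrays, with an intensity trend in eBayes, gave each comparison, and p-values were adjusted by Benjamini-Hochberg over all genes. The spread is that between the labelled samples. A gene not well above background on every array of 1 group is given as at least N-fold, which sets the bright group's mean against the lowest signal well above background on each dim array. On simulated data with 200 changed genes, the fit recovered 22% (Nestin) and 33% (NG2) of changes of 1 log2 unit, and 86% and 89% of changes of 2 units. The simulation changed 200 of 11927 genes, whereas 46.3% (Nestin) and 50.7% (NG2) of genes passed in the data. The adjustment is stricter when fewer genes change, so the recovered shares do not measure the sensitivity of the real comparisons. The number of arrays limits the precision.

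Every gene of the set was accounted for. Array values are given for the 6 largest differences in each model, for genes that passed in another comparison, for the 3 largest SDs among tumors of each model and for Irf3 and the measured chains of the type I and interferon gamma receptors. Array values of Stat2, Cmpk2, Socs3 and Mx2 were added after their values were seen. The genes of the set and all lists were chosen with earlier results of these data known. Replicate numbers are shared across groups, but deviations of same-numbered arrays correlated at -0.0589 to 0.0351, so no block was used. The letters in the sample titles pair the NG2 arrays differently. By letter, NG2 tumor 4 and control 1 correlated at 0.115, tumor 1 and control 2 at 0.0295, and tumor 2 and control 3 at 0.0662. The replicate block among the alternatives follows the numbers, and no block by letter was fitted. Alternatives covered background, normalization, filter, probe choice, slide, trend, the replicate block and leaving out each array.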

Additional observations from a re-analysis of the deposited data

Results flagged for a closer look

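The level of Ddx58 in NG2 tumor 1 (6.86) lay far below the nearest of the other 3 NG2 tumors (7.97). The gap was 0.942 of the range of the group, above Dixon's critical value at the 95% level for 4 arrays. Of 36 genes checked in the NG2 tumors, 1 passed that value, and chance alone passes 5% of such groups.

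Mx1, an antiviral GTPase gene that stayed outside the test, was above background on 2 tumor arrays, NG2 tumor 2 (7.08) and NG2 tumor 3 (6.91), and on 0 control arrays.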

How the results depend on the processing

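Of the genes called higher, 23 of 31 in the Nestin model and 24 of 30 in the NG2 model kept their call under all 27 alternatives. Leaving out 1 array gave 26 to 31 calls in the Nestin model, lowest without Nestin tumor 2, and 28 to 33 in the NG2 model, highest without NG2 tumor 4. It gave 0 to 1 between the tumors, 0 between the controls and 0 to 1 for the difference of the effects, where Ddx58 passed without NG2 tumor 1. Between the tumors the count was 0 with slide as a fixed block, 0 when only the compared groups were fitted and 2 with the replicate block (Ddx58 -1.10, Gbp2 -1.55). Between the controls it was 2 when only those groups were fitted (Oasl2 -0.81, Mx2 -1.26). The other probe of Oasl2 had the opposite sign between the controls, at 0.30 in the fit on all arrays. The replicate block gave 31 and 33 calls in the tumor comparisons and 0 in the other 2. A motif spacing of 1 base lowered the promoter share from 50% to 22.2%, where all genes of the table had 3.7%. Scaling each array to its median raised the median over all genes to 0.45 and 0.47 and the share of calls that were higher from 52.6% to 72.9% and from 52.4% to 71.8%, with medians of the set of 2.39 and 2.36. No cause of these shifts was tested.

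Signs turned only for genes that had not passed. In the Nestin model leaving out 1 array gave -0.14 to 0.0956 for Socs1, -0.209 to 0.0326 for Zbp1, -0.114 to 0.204 for Cmpk2, -0.0196 to 0.472 for Ifnar2 and -0.415 to 0.235 for Jak1. Slide 1 alone gave -0.0525 for Socs1, 0.13 for Zbp1, -0.0208 for Cmpk2 and 0.07485 for Jak1. Scaling to the median gave 0.357 for Zbp1, 0.0103 for Ifna1, 0.0305 for Ifngr2 and 0.398 for Jak1. Cyclic loess gave -0.00281 for Cmpk2, and the mean of probes gave 0.00889 for Ifna1. In the NG2 model leaving out 1 array gave -0.05998 to 0.719 for Cmpk2 and -0.127 to 0.194 for Ifna1, scaling to the median gave 0.323 for Zbp1 and 0.132 for Ifna1, and slide as a random block gave 0.016 for Ifna1. Signal close to background limits Socs1, Trim25, Irf7, Oasl1 and Rtp4.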
